A study of Homo sapiens with 36 samples.

Results

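The nuclear lamina and high mobility group (HMG) chromatin genes described here are LMNB1, LMNB2, LMNA, LBR, HMGB1, HMGB2, HMGB3, HMGA1 and HMGA2. They were taken by name, 9 of the 57232 genes counted, and each name matched 1 Ensembl gene. They are genes known to be lost or changed in senescence, and the question is whether cardiac glycosides bring them back. All 9 passed the filter on low counts. The cells were IMR90 ER:RAS, a line of human lung fibroblasts that carries RAS joined to an oestrogen receptor domain, so that 4-hydroxytamoxifen (4OHT) switches RAS on. Cells were grown for 6 days in 10% serum with fresh medium on day 3. Senescent cells had 100 nM 4OHT, with 6 days of induction before the treatment time, and were given digoxin, ouabain or vehicle, and proliferating cells had vehicle and no 4OHT. All 4 kinds of cell were taken at 16 h, at 36 h and, with a caspase inhibitor overnight, again at 36 h, which makes 12 groups of n = 3 libraries. The labels give no dose for either drug or for the inhibitor, no proliferating cells had a drug, and the whole design rests on 1 inducible fibroblast line at passage 14.

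The lamina is the protein mesh under the inner nuclear membrane, built from B-type lamins (LMNB1, LMNB2) and A-type lamins (LMNA), and it holds silent chromatin at the nuclear rim. LBR, the lamin B receptor, sits in the inner membrane, ties heterochromatin to B-type lamins and is also a sterol reductase. HMG proteins are small, abundant chromatin proteins that bend or open DNA: HMGB1 to HMGB3 bind the minor groove without strong base preference, while HMGA1 and HMGA2 bind AT-rich DNA. In RAS-induced senescence, loss of lamin B1 is a widely used marker, HMGB1 leaves the nucleus and can be secreted, and HMGA proteins build up in condensed senescence-associated heterochromatin foci. Digoxin and ouabain are plant cardiac glycosides that block the sodium pump. Both have a steroid core with a lactone ring; digoxin carries a chain of digitoxose sugars and ouabain a rhamnose.

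Totals per library lay between 10854351 and 21446415 counts. Levels are counts scaled for depth by TMM library size (CPM), with SD over 3 libraries, and changes are log2 fold changes with standard errors (SE) from edgeR's quasi-likelihood test. A gene is called changed at a Benjamini-Hochberg adjusted p under 0.05 over the 18696 genes tested. Whether replicates were separate cultures is not stated in the labels, so the p-values reflect spread from library to library that may be technical. Replicate 2 of ouabain at 16 h and replicate 2 of proliferating cells at 16 h stood apart from their groups, and results at 16 h are given without them where they differ. RNA from bulk cells cannot tell fewer cells of a kind from less RNA per cell. The 10 fibroblast markers were all above 1 CPM in each group and summed to between 4874 and 9474 CPM in drug-treated libraries, 8644 and 9238 CPM in senescent vehicle libraries and 14575 and 17022 CPM in proliferating libraries. The 6 leukocyte markers summed to between 2.75 and 8.64 CPM with a drug, against 0.574 to 1.67 CPM in vehicle libraries. CD3E had 1 count over all 36 libraries together. The highest group means of the others were 3.01 CPM for ITGAM, 1.73 for CD14, 1.63 for CD68, 1.46 for CD79A and 0.756 for PTPRC. The 6 epithelial markers summed to between 24.1 and 62.9 CPM, mostly from keratins, with SFTPC at 0. The 5 endothelial markers that matched summed to between 15.1 and 39.7 CPM with a drug. Their sums were 6.03 to 8.87 CPM in senescent vehicle cells and 11.1 to 18.0 CPM in proliferating cells. KDR had 29.8 ± 7.0 CPM with digoxin at 36 h. The highest group means of the others were 15.5 CPM for TEK, 1.86 for VWF, 0.161 for CLDN5 and 0.109 for CDH5. The part of these markers in the results below was not tested.

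LMNB1, the B-type lamin most often scored as lost in senescence, was low in senescent cells and returned in part between 16 h and 36 h of drug. Its levels at 36 h were 8.50, 8.85 and 7.18 CPM with digoxin, 9.06, 7.31 and 6.79 CPM with ouabain, 1.37, 1.10 and 1.33 CPM in senescent vehicle cells and 16.0, 15.8 and 14.2 CPM in proliferating cells. The drug libraries lay between the other groups and overlapped neither. LMNB1 rose 6.45-fold with digoxin against senescent vehicle (log2 2.69 ± 0.22, edgeR adjusted p = 6.37e-13) and 6.13-fold with ouabain (2.62 ± 0.22, adjusted p = 1.37e-12). It was still 1.87-fold lower than in proliferating cells with digoxin (log2 -0.90 ± 0.17) and 1.97-fold lower with ouabain (-0.98 ± 0.17).

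Senescence itself lowered LMNB1 19.0-fold at 16 h (log2 -4.25 ± 0.21, edgeR adjusted p = 2.36e-18) and 12.1-fold at 36 h (-3.59 ± 0.21, adjusted p = 7.09e-17). At 16 h the drugs had not raised it. LMNB1 had 1.06, 0.441 and 0.456 CPM with digoxin, 0.307, 0.865 and 0.300 CPM with ouabain, 0.670, 1.37 and 1.04 CPM in senescent vehicle cells and 19.8, 19.1 and 20.98 CPM in proliferating cells. These low levels rest on 18, 7 and 8 counts with digoxin, 5, 17 and 5 counts with ouabain and 12, 29 and 22 counts in senescent vehicle cells, and the 3 groups overlapped. The change was -0.66 ± 0.35 with digoxin (edgeR adjusted p = 0.102), -1.21 without digoxin replicate 1 and -0.88 without senescent vehicle replicate 1, both called. Scaling by library size alone put the digoxin change at -0.98, also called. LMNB1 fell 2.02-fold with ouabain (-1.02 ± 0.37, adjusted p = 0.0189), and the change was -1.76 without the deviating libraries. That call was lost without senescent vehicle replicate 2 (-0.76), ouabain replicate 1 (-0.78) or ouabain replicate 3 (-0.77), and when these groups were fitted alone (-1.002).

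The caspase inhibitor groups at 36 h gave LMNB1 levels of 7.14, 6.84 and 9.24 CPM with digoxin, 7.77, 5.97 and 5.91 CPM with ouabain, 1.58, 0.784 and 1.21 CPM with vehicle in senescent cells and 12.7, 15.8 and 14.7 CPM in proliferating cells. The order of the groups was that seen without the inhibitor. LMNB1 rose 6.58-fold with digoxin (log2 2.72 ± 0.24) and 5.56-fold with ouabain (2.47 ± 0.24) against senescent vehicle with the inhibitor.

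LBR, the membrane anchor, followed LMNB1 in its timing and came within log2 0.24 of proliferating cells at 36 h. At 36 h it had 35.3, 35.9 and 34.8 CPM with digoxin, 35.6, 33.5 and 36.5 CPM with ouabain, 16.5, 17.8 and 17.8 CPM in senescent vehicle cells and 30.1, 30.8 and 29.1 CPM in proliferating cells. The drug libraries stood above all vehicle libraries of that time. LBR rose 2.03-fold with digoxin (log2 1.02 ± 0.08, edgeR adjusted p = 3.02e-13) and 2.02-fold with ouabain (1.02 ± 0.08, adjusted p = 4.0e-13) against senescent vehicle. Against proliferating cells it was higher by 0.24 ± 0.08 with digoxin and 0.23 ± 0.08 with ouabain on the log2 scale, but scaling by library size alone put it lower, at -0.23 and -0.14, and neither call held with no filter on low counts.

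At 16 h LBR had 18.1, 18.8 and 16.7 CPM with digoxin, 18.5, 19.99 and 19.0 CPM with ouabain, 16.0, 17.6 and 19.1 CPM in senescent vehicle cells and 31.6, 28.7 and 33.6 CPM in proliferating cells. The drug and senescent vehicle libraries overlapped, and all lay under the proliferating ones. Senescence lowered LBR, with log2 changes of -0.83 ± 0.08 at 16 h and -0.79 ± 0.08 at 36 h. The drug changes at 16 h were 0.02 with digoxin (95% interval -0.15 to 0.19) and 0.13 with ouabain (-0.04 to 0.30), neither called. Under library size scaling LBR fell with digoxin (-0.29, called), and it was -0.15 with ouabain, not called. LBR averaged, with the caspase inhibitor, 37.9 ± 3.16 CPM with digoxin, 34.7 ± 2.15 CPM with ouabain, 21.98 ± 0.77 CPM in senescent vehicle cells and 38.6 ± 2.79 CPM in proliferating cells.

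The promoters of LMNB1 and LBR are printed because these are the lamina genes that rose late. The windows run from 250 bases before to 50 bases after the start of transcription, from RefSeq on GRCh38.p14, at chr5:126776886-126777185 on the + strand for LMNB1 and chr1:225428772-225429071 on the - strand for LBR. Capitals mark CCAAT (read here as ATTGG, on the other strand) and CACGTG in LMNB1, and TGACTCA in LBR, and none of these overlap.
LMNB1: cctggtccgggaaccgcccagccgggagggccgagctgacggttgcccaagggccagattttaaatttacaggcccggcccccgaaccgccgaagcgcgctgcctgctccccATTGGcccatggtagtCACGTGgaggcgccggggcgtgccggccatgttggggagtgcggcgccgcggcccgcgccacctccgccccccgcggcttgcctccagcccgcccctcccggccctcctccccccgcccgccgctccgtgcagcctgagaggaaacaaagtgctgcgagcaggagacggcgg
LBR: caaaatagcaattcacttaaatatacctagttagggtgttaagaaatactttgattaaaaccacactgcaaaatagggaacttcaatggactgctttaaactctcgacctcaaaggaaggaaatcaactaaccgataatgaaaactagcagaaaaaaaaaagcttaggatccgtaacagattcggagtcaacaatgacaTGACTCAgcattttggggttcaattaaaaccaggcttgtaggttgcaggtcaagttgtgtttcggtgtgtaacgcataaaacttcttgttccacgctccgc

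Both strands of the windows of 7 of the 9 genes were searched for CCAAT (NF-Y), TTTGAA (the CHR element of cell-cycle promoters), TTTGGCGC and TTTCCCGC (E2F), CACGTG (E-box) and TGACTCA (AP-1). Of 35116 promoter windows of this length in the RefSeq table, 34.6% hold CCAAT, 15.2% TTTGAA, 0.652% TTTGGCGC, 1.63% TTTCCCGC, 7.26% CACGTG and 4.95% TGACTCA. The printed LMNB1 window is 73.7% G or C and the LBR window 38.3%. HMGB1 has 3 CCAAT matches in 1 of its 3 windows and HMGB3 has 3 in 1 of its 2 windows. Of all windows 3.26% have 3 or more. Single CCAAT matches also lie in another HMGB1 window, in 1 LMNA window and in each HMGA1 window. TTTGAA has 1 match in the LMNB2 window, in 1 HMGB1 window and in 1 HMGB3 window. TTTCCCGC has 1 match, in an LMNA window, and TTTGGCGC has none. CACGTG and TGACTCA match only in the printed windows. Windows for HMGB2 and HMGA2 were not used here. A match to these letters is a description and no site was measured.

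LMNA, which encodes lamins A and C, fell in senescence and rose with both drugs at both times. Its levels at 36 h were 325, 289 and 281 CPM with digoxin, 364, 328 and 315 CPM with ouabain, 204, 215 and 210 CPM in senescent vehicle cells and 339, 377 and 388 CPM in proliferating cells. All drug libraries stood above the senescent vehicle ones, and the ouabain libraries overlapped the proliferating ones. LMNA rose by log2 0.51 ± 0.08 with digoxin (edgeR adjusted p = 9.52e-07) and 0.68 ± 0.08 with ouabain (adjusted p = 3.65e-09). Against proliferating cells it was -0.30 ± 0.08 with digoxin, called, and -0.13 ± 0.08 with ouabain (edgeR adjusted p = 0.14). These differences depend on TMM scaling: library size scaling moved the median of all genes there by -0.46 with digoxin and -0.37 with ouabain.

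At 16 h LMNA had 307, 311 and 309 CPM with digoxin, 304, 286 and 276 CPM with ouabain, 238, 213 and 219 CPM in senescent vehicle cells and 409, 334 and 407 CPM in proliferating cells. The groups of senescent cells did not overlap the proliferating one. The rise was log2 0.47 ± 0.08 with digoxin and 0.37 ± 0.08 with ouabain, and with scaling by library size alone it was 0.15 and 0.09, neither called. Senescence lowered LMNA, with log2 changes of -0.78 ± 0.08 at 16 h and -0.81 ± 0.08 at 36 h. LMNA with the caspase inhibitor averaged 289 ± 28.5 CPM with digoxin, 297 ± 1.91 CPM with ouabain, 175 ± 7.76 CPM in senescent vehicle cells and 290.4 ± 18.0 CPM in proliferating cells.

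LMNB2, the other B-type lamin, fell with both drugs at both times, while LMNB1 rose at 36 h. At 16 h it had 27.8, 28.5 and 26.5 CPM with digoxin, 31.4, 42.4 and 25.9 CPM with ouabain, 51.0, 53.6 and 54.3 CPM in senescent vehicle cells and 60.0, 71.4 and 66.1 CPM in proliferating cells. All drug libraries stood under all vehicle libraries, with the deviating ouabain library the highest of its group. LMNB2 fell 1.92-fold with digoxin (log2 -0.94 ± 0.11, edgeR adjusted p = 2.86e-09) and 1.59-fold with ouabain (-0.67 ± 0.11, adjusted p = 2.39e-06), or at log2 -0.89 with ouabain without the deviating libraries. At 36 h it had 40.0, 36.6 and 34.3 CPM with digoxin, 36.9, 36.7 and 34.2 CPM with ouabain, 48.3, 51.6 and 48.7 CPM in senescent vehicle cells and 50.1, 51.8 and 47.6 CPM in proliferating cells. LMNB2 was lower at log2 -0.42 ± 0.11 with digoxin (adjusted p = 0.000869) and -0.46 ± 0.11 with ouabain (adjusted p = 0.000354) against senescent vehicle. The vehicle groups at 36 h overlapped.

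The senescence change of LMNB2 was log2 -0.31 ± 0.10 at 16 h (edgeR adjusted p = 0.0123), -0.01 at 36 h (95% interval -0.22 to 0.20) and -0.08 at 36 h with the inhibitor (-0.29 to 0.14). The call at 16 h was lost without proliferating replicate 2 (-0.25) or senescent vehicle replicate 1 (-0.28). From 16 h to 36 h the mean of LMNB2 went from 65.8 ± 5.71 to 49.9 ± 2.13 CPM in proliferating cells. In senescent vehicle cells it went from 53.0 ± 1.77 to 49.5 ± 1.80 CPM. The gene TIMM13 overlaps LMNB2 on the same strand, with 162 to 542 counts a library, and how reads of the overlap were counted is not given in the sources used here. LMNB2 with the caspase inhibitor averaged 34.1 ± 3.39 CPM with digoxin, 35.02 ± 3.10 CPM with ouabain, 45.8 ± 1.34 CPM in senescent vehicle cells and 48.4 ± 4.66 CPM in proliferating cells.

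Per kilobase of exon, the lamins at 36 h stood in the order LMNA, LMNB2, LMNB1 in each group. LMNA had 42.7 ± 3.4 CPM per kilobase with digoxin, 48.1 ± 3.7 with ouabain, 30.0 ± 0.79 in senescent vehicle cells and 52.6 ± 3.7 in proliferating cells. LMNB2 had 6.80 ± 0.53 CPM per kilobase with digoxin, 6.62 ± 0.28 with ouabain, 9.12 ± 0.33 in senescent vehicle cells and 9.18 ± 0.39 in proliferating cells. LMNB1 had 2.25 ± 0.24 CPM per kilobase with digoxin, 2.12 ± 0.33 with ouabain, 0.348 ± 0.039 in senescent vehicle cells and 4.22 ± 0.28 in proliferating cells. LMNB2 stood above LMNB1 per kilobase in all 12 groups.

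**Figure D1:**
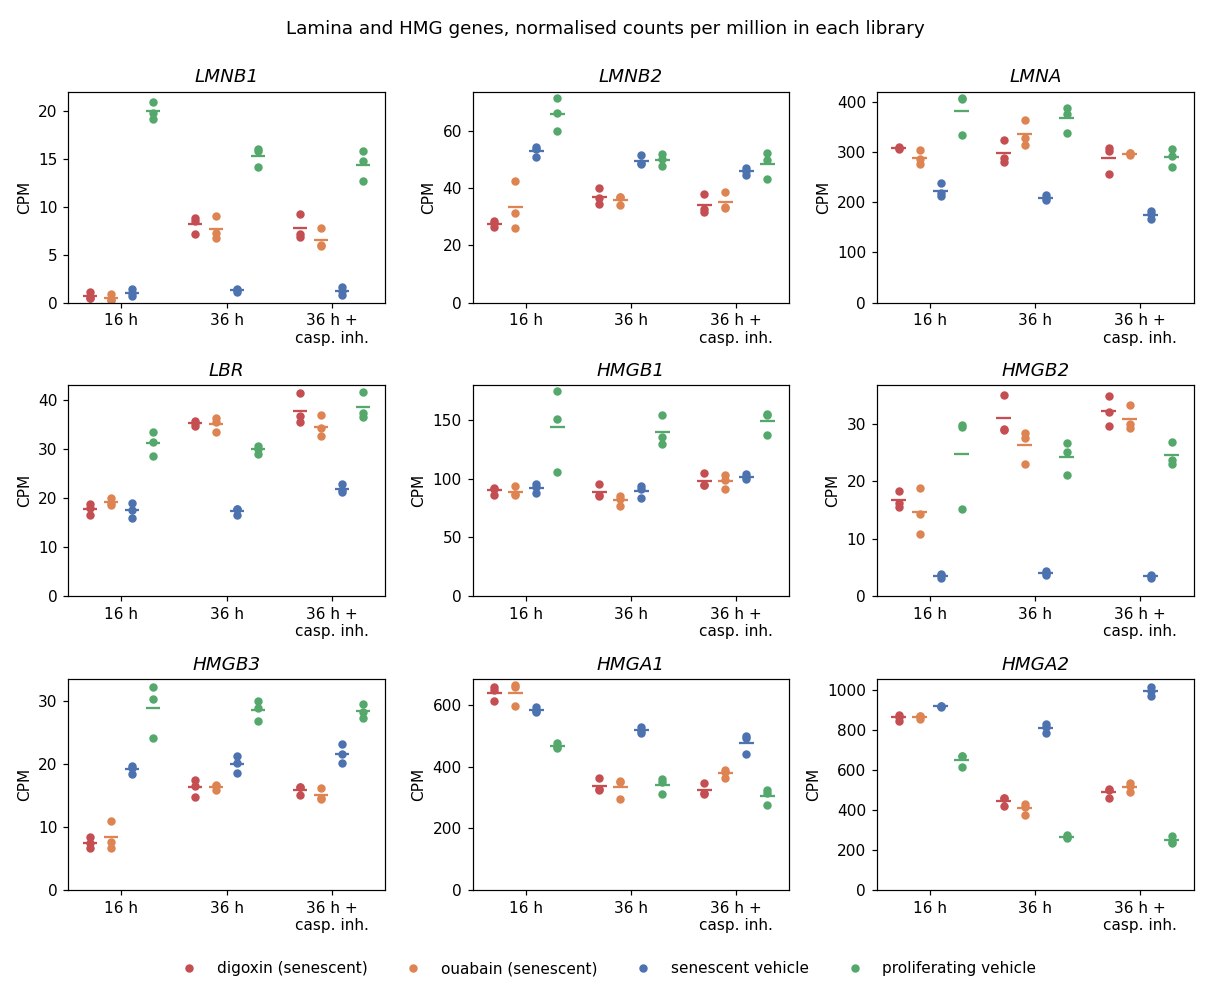
Level of each of the 9 genes in each library, in CPM after TMM scaling, by group at 16 h, 36 h and 36 h with the caspase inhibitor. Points are libraries and lines are group means, and values after ± in this caption are SD. At 16 h of drug the LMNB1 and LBR libraries overlap those of senescent vehicle, though LMNB1 is called lower with ouabain. At 36 h both genes stand above senescent vehicle. LMNB1 there has 8.17 ± 0.88 CPM with digoxin against 1.27 ± 0.142 CPM with senescent vehicle.

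HMGB2, a nuclear DNA-bending protein that is abundant in dividing cells and known to keep secretory genes of senescence out of silent chromatin, was low in senescent cells and rose with both drugs already at 16 h. It had 18.4, 15.6 and 16.2 CPM with digoxin at 16 h, 18.8, 10.8 and 14.4 CPM with ouabain, 3.18, 3.63 and 3.83 CPM in senescent vehicle cells and 29.4, 15.2 and 29.8 CPM in proliferating cells. Every drug library stood above every senescent vehicle library, and the deviating proliferating library lay among the drug libraries. HMGB2 rose 4.7-fold with digoxin (log2 2.23 ± 0.20, edgeR adjusted p = 6.79e-12) and 4.09-fold with ouabain (2.03 ± 0.20, adjusted p = 1.4e-10).

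At 36 h HMGB2 had 35.1, 28.97 and 29.1 CPM with digoxin, 28.4, 27.5 and 23.0 CPM with ouabain, 4.38, 3.77 and 4.02 CPM in senescent vehicle cells and 25.0, 21.1 and 26.7 CPM in proliferating cells. The digoxin libraries stood above all proliferating ones, and the ouabain libraries overlapped them. HMGB2 rose 7.67-fold with digoxin (log2 2.94 ± 0.19, edgeR adjusted p = 1.03e-15) and 6.52-fold with ouabain (2.70 ± 0.19, adjusted p = 1.25e-14) against senescent vehicle. Senescence lowered it 6.97-fold at 16 h (-2.80 ± 0.19, adjusted p = 1.49e-14; -3.06 without the deviating libraries) and 5.99-fold at 36 h (-2.58 ± 0.19, adjusted p = 4.44e-14).

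HMGB2 with the caspase inhibitor had 34.9, 29.7 and 32.0 CPM with digoxin, 29.3, 33.3 and 30.0 CPM with ouabain, 3.77, 3.19 and 3.53 CPM in senescent vehicle cells and 23.7, 26.8 and 23.0 CPM in proliferating cells. The drug libraries stood above both vehicle groups. The rise over senescent vehicle was 9.23-fold with digoxin (log2 3.21 ± 0.20) and 8.86-fold with ouabain (3.15 ± 0.20).

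HMGB1, the family member that is secreted as an alarm signal, fell in senescence and showed no called change with either drug under TMM scaling, but called falls with both under library size scaling. Its levels at 36 h were 85.6, 95.7 and 86.1 CPM with digoxin, 85.6, 82.5 and 77.0 CPM with ouabain, 91.2, 93.8 and 83.6 CPM in senescent vehicle cells and 135, 130 and 154 CPM in proliferating cells. Each drug's libraries overlapped the senescent vehicle ones, and all of these lay under the proliferating libraries, while the ouabain libraries lay just under the digoxin ones. The drug changes were log2 -0.01 with digoxin (95% interval -0.22 to 0.20, edgeR adjusted p = 0.959) and -0.13 with ouabain (-0.34 to 0.08, adjusted p = 0.278). Scaling by library size alone gave -0.32 and -0.35, both called, in comparisons at 36 h where that scaling moved the median of all genes by -0.31 with digoxin and -0.22 with ouabain.

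Senescence lowered HMGB1, with log2 changes of -0.65 ± 0.10 at 16 h (edgeR adjusted p = 1.9e-06) and -0.64 ± 0.10 at 36 h (adjusted p = 1.77e-06). At 16 h HMGB1 had 86.5, 92.0 and 91.7 CPM with digoxin, 93.4, 86.3 and 87.4 CPM with ouabain, 95.4, 87.6 and 92.9 CPM in senescent vehicle cells and 174, 106 and 151 CPM in proliferating cells. The drug changes at 16 h were -0.03 with digoxin (95% interval -0.24 to 0.18) and -0.05 with ouabain (-0.25 to 0.16), neither called, and under library size scaling -0.35 and -0.33, both called. With the inhibitor they were -0.05 and -0.05, neither called, and -0.30 and -0.27 under that scaling, both called. The lowest proliferating library was the deviating one, and the senescence change was -0.83 without the deviating libraries. HMGB1 with the caspase inhibitor averaged 98.1 ± 5.76 CPM with digoxin, 97.8 ± 5.87 CPM with ouabain, 102 ± 1.92 CPM in senescent vehicle cells and 149 ± 9.97 CPM in proliferating cells. The count table also holds 47 pseudogenes named after HMGB1, 29 after HMGB3, 8 after HMGA1 and 1 after HMGB2, and reads that fit both a gene and its copy could be lost or split.

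HMGB3, a relative expressed in progenitor and embryonic cells, moved against HMGB2: it fell with the drugs, most at 16 h. At 16 h it had 6.66, 8.37 and 7.46 CPM with digoxin, 7.67, 10.99 and 6.73 CPM with ouabain, 18.5, 19.7 and 19.4 CPM in senescent vehicle cells and 32.2, 24.2 and 30.3 CPM in proliferating cells. All drug libraries stood under all senescent vehicle libraries, and those under the proliferating ones. HMGB3 fell 2.56-fold with digoxin (log2 -1.36 ± 0.12, edgeR adjusted p = 1.58e-11) and 2.25-fold with ouabain (-1.17 ± 0.12, adjusted p = 5.42e-10; -1.42 without the deviating libraries). Senescence lowered it, with log2 changes of -0.59 ± 0.11 at 16 h and -0.52 ± 0.11 at 36 h.

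At 36 h HMGB3 had 17.5, 16.5 and 14.8 CPM with digoxin, 16.5, 16.6 and 15.9 CPM with ouabain, 21.3, 18.5 and 20.2 CPM in senescent vehicle cells and 26.8, 28.9 and 30.1 CPM in proliferating cells. The libraries still did not overlap between drug and senescent vehicle. The change was log2 -0.30 ± 0.12 with digoxin (edgeR adjusted p = 0.0262) and -0.29 ± 0.12 with ouabain (adjusted p = 0.0305). The digoxin call was lost without senescent vehicle replicate 1 (-0.26), senescent vehicle replicate 3 (-0.29) or digoxin replicate 3 (-0.24), and with DESeq2 size factors in edgeR (-0.26). The ouabain call was lost without senescent vehicle replicates 1 (-0.25) or 3 (-0.29), or ouabain replicates 1 (-0.30), 2 (-0.31) or 3 (-0.28). With the caspase inhibitor HMGB3 averaged 16.0 ± 0.818 CPM with digoxin, 15.1 ± 0.949 CPM with ouabain, 21.7 ± 1.47 CPM in senescent vehicle cells and 28.4 ± 1.11 CPM in proliferating cells, and the drug changes there were -0.44 and -0.53, both called.

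HMGA2, an AT-hook protein of embryonic and tumour cells that takes part in the heterochromatin foci of senescence, was higher in senescent cells and fell with the drugs at 36 h. It had 418, 461 and 462 CPM with digoxin, 375, 431 and 418 CPM with ouabain, 829, 817 and 785 CPM in senescent vehicle cells and 275, 264 and 262 CPM in proliferating cells. The drug libraries lay between the vehicle groups and overlapped neither. HMGA2 fell 1.81-fold with digoxin (log2 -0.86 ± 0.06, edgeR adjusted p = 3.21e-14) and 1.99-fold with ouabain (-0.99 ± 0.06, adjusted p = 9.74e-16). It was still higher than in proliferating cells, by 0.74 ± 0.06 with digoxin and 0.61 ± 0.06 with ouabain.

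At 16 h HMGA2 had 868, 874 and 848 CPM with digoxin, 873, 854 and 873 CPM with ouabain, 920, 922 and 915 CPM in senescent vehicle cells and 671, 614 and 668 CPM in proliferating cells. The drug libraries lay just under the senescent vehicle ones without overlap. The drug change was log2 -0.09 ± 0.06 for both drugs, with adjusted p = 0.214 for digoxin and 0.255 for ouabain in edgeR, and with scaling by library size alone it was -0.41 and -0.37, both called. Senescence raised HMGA2 1.41-fold at 16 h (0.50 ± 0.06, adjusted p = 2.63e-08) and 3.03-fold at 36 h (1.60 ± 0.06, adjusted p = 2.55e-21). The senescence effect at 36 h minus that at 16 h was 1.10 ± 0.09 (adjusted p = 5.56e-10), and HMGA2 was 2.44-fold lower at 36 h than at 16 h in proliferating cells (-1.29 ± 0.06, adjusted p = 2.82e-16). Both of these contrasts were added after the data had been seen, and they called 1 of the 9 genes, beside 2.13% of all genes, and 3 of the 9 genes, beside 8.14%.

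With the caspase inhibitor HMGA2 had 499, 508 and 462 CPM with digoxin, 520, 533 and 491 CPM with ouabain, 973, 994 and 1016 CPM in senescent vehicle cells and 236, 240 and 272 CPM in proliferating cells. The drug libraries again lay between the vehicle groups and overlapped neither, and the drugs overlapped each other. RPSAP52 lies antisense to HMGA2, with 7 to 65 counts a library, and the strand setting of the counting is not given in the sources used here.

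HMGA2 is the textbook target of the let-7 microRNAs, which bind its 3′ untranslated region, and the sites are printed because they set it apart from the other 8 genes in sequence. In the mature let-7a from RefSeq the capitals mark the seed, bases 2 to 8. In the HMGA2 transcript HMGA2-204 (GENCODE, GRCh38, chromosome 12, + strand) they mark the letters that pair with the seed, with the position of the first of those letters counted from the start of the 3′ untranslated region.
hsa-let-7a-5p: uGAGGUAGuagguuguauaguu
HMGA2, base 21: gccaacgttcgatttCTACCTCa
HMGA2, base 1256: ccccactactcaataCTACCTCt
HMGA2, base 1668: ttgacttgcaaagacCTACCTCc
HMGA2, base 2521: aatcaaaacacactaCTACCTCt

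The 3003 bases of that region held 4 such matches, and 1 of 1908 genes with a region of like length held as many, 0.0524%, while 14.2% held at least 1. HMGA1 and LBR held 1 match each and the other 6 genes none in the transcripts searched. Mature microRNAs are not measured by these mRNA libraries. Of the proteins that act on let-7 or on HMGA2 mRNA, IGF2BP3, an RNA-binding protein known to shield HMGA2 mRNA from let-7 in cancer cells, had 39.5 ± 1.9 CPM with digoxin, 36.1 ± 3.1 CPM with ouabain, 147 ± 6.0 CPM in senescent vehicle cells and 113 ± 3.8 CPM in proliferating cells at 36 h. It fell, with log2 changes of -1.90 ± 0.10 with digoxin and -2.03 ± 0.10 with ouabain. DICER1, which cuts microRNA precursors, fell, with log2 changes of -0.71 ± 0.18 and -0.75 ± 0.17. The part of let-7, IGF2BP3 or DICER1 in the level of HMGA2 was not tested. Of the 5 genes tested in the list of LIN28, IGF2BP and microRNA processing genes, 1 rose and 2 fell with digoxin at 36 h, beside 31.6% of all genes higher and 32.4% lower, and 0 rose and 3 fell with ouabain, beside 30.2% and 30.8%. Library size scaling gave 0 higher and 3 lower with each. Of 18696 genes it called 4278 higher and 8406 lower with digoxin, and 4348 higher and 7575 lower with ouabain.

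HMGA1, the relative of HMGA2 found in most dividing cells, moved the same way as HMGA2 at 36 h, and by less. At 36 h it had 364, 324 and 329 CPM with digoxin, 296, 355 and 351 CPM with ouabain, 529, 518 and 510 CPM in senescent vehicle cells and 350, 313 and 361 CPM in proliferating cells. The drug libraries overlapped the proliferating ones and stood under all senescent vehicle ones. HMGA1 fell 1.53-fold with digoxin (log2 -0.61 ± 0.07, edgeR adjusted p = 5.71e-09) and 1.55-fold with ouabain (-0.64 ± 0.07, adjusted p = 3.1e-09). Against proliferating cells the difference was -0.01 with digoxin (95% interval -0.16 to 0.14) and -0.03 with ouabain (-0.18 to 0.12), neither called, but called at -0.47 and -0.41 when scaled by library size alone.

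At 16 h HMGA1 had 658, 650 and 615 CPM with digoxin, 666, 660 and 597 CPM with ouabain, 593, 582 and 577 CPM in senescent vehicle cells and 465, 478 and 461 CPM in proliferating cells. The drug libraries stood above the senescent vehicle ones, yet the change of log2 0.13 ± 0.07 was not called for digoxin (edgeR adjusted p = 0.114) or ouabain (0.122), and under library size scaling it was -0.18 for digoxin, called, and -0.15 for ouabain, not called. Senescence raised HMGA1 by 0.32 ± 0.07 at 16 h and 0.61 ± 0.07 at 36 h. Between these times its mean went from 468 ± 8.93 to 341 ± 25.1 CPM in proliferating cells. In senescent vehicle cells it went from 584 ± 7.99 to 519 ± 9.73 CPM. HMGA1 with the caspase inhibitor had 316, 346 and 312 CPM with digoxin, 384, 390 and 362 CPM with ouabain, 441, 501 and 494 CPM in senescent vehicle cells and 277, 314 and 325 CPM in proliferating cells. It fell there, at log2 -0.56 ± 0.07 with digoxin and -0.34 ± 0.07 with ouabain.

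Counted over the 9 genes, senescence raised 2 and lowered 7 at 16 h, beside 26.4% of all tested genes called higher and 25.2% called lower. It raised 2 and lowered 6 at 36 h, beside 26.7% and 25.8%, and raised 2 and lowered 6 with the caspase inhibitor, beside 26.6% and 25.7%. The median log2 change of the 9 genes was -0.65, -0.64 and -0.55 in these comparisons, beside 0.01, -0.01 and 0 over all genes. The 9 genes were chosen as lost or changed in senescence, with earlier results of these data known. Their senescence counts and medians are therefore a description and no evidence of a change particular to them. The HMGA genes rose in all 3, and LMNB1, LMNA, LBR, HMGB1, HMGB2 and HMGB3 fell in all 3.

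Digoxin raised 2 and lowered 2 of the 9 genes at 16 h, beside 28.3% of all genes called higher and 31.3% called lower. It raised 4 and lowered 4 at 36 h, beside 31.6% and 32.4%, and raised 4 and lowered 4 with the caspase inhibitor, beside 30.3% and 32.1%. Ouabain raised 2 and lowered 3 at 16 h, beside 25.1% of all genes called higher and 28.4% called lower. It raised 4 and lowered 4 at 36 h, beside 30.2% and 30.8%, and raised 4 and lowered 4 with the inhibitor, beside 28.9% and 30.6%. Scaling by library size alone left 1 higher and 7 lower at 16 h with digoxin and 1 higher and 5 lower with ouabain. There it moved the median of all genes by -0.31 and -0.28. Of 18696 genes it called 2937 higher and 8199 lower with digoxin, and 2784 higher and 7769 lower with ouabain. Median log2 changes over the 9 genes at 36 h were -0.01 with digoxin and -0.13 with ouabain, beside -0.02 and 0.00 over all genes. At 36 h both drugs raised LMNB1, LMNA, LBR and HMGB2, which senescence had lowered, and lowered HMGA1 and HMGA2, which it had raised. LMNB2 and HMGB3 fell, and HMGB1 was not called. These drug changes and the senescence changes share the senescent vehicle libraries, so their opposite signs are no independent evidence of a return.

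**Figure D2:**
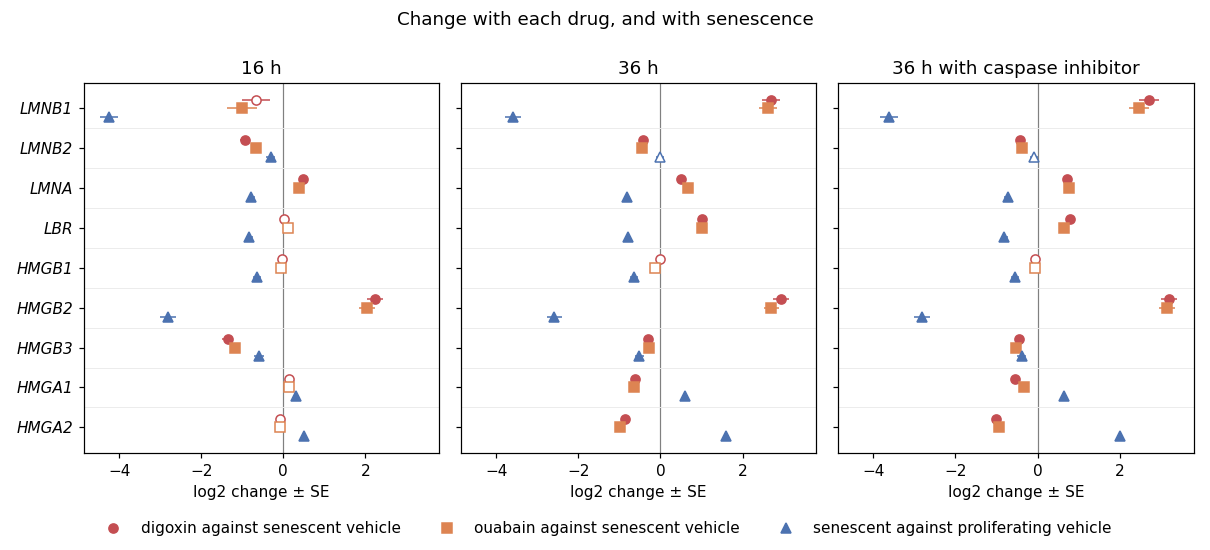
Log2 fold change of each gene with SE for digoxin, ouabain and senescence, in panels of 16 h, 36 h and 36 h with the caspase inhibitor; filled symbols are changes called by edgeR at an adjusted p under 0.05 and open symbols are not called. At 36 h LMNB1, at 2.69 with digoxin and 2.62 with ouabain, and HMGB2, at 2.94 and 2.70, rose most.

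The drug effect itself was compared between the times. For digoxin the effect at 36 h minus that at 16 h was called for 7 of the 9 genes, 5 higher and 2 lower, beside 23.4% and 19.3% of all genes. It was 3.35 ± 0.42 for LMNB1 (edgeR adjusted p = 3.8e-08), 1.06 ± 0.17 for HMGB3, 1.00 ± 0.12 for LBR, 0.71 ± 0.28 for HMGB2, 0.52 ± 0.15 for LMNB2, -0.75 ± 0.10 for HMGA1 and -0.77 ± 0.09 for HMGA2. LMNA (0.04) and HMGB1 (0.02) were not called. The HMGB2 call was lost without digoxin replicates 2 (0.66) or 3 (0.68) or senescent vehicle replicates 2 (0.69) or 3 (0.65) of 16 h, and without digoxin replicate 1 (0.61) or senescent vehicle replicates 2 (0.66) or 3 (0.70) of 36 h.

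For ouabain 6 of the 9 genes differed between the times, 4 higher and 2 lower, beside 18.4% and 16.7% of all genes. The difference was 3.63 ± 0.43 for LMNB1 (4.36 without the deviating libraries), 0.89 ± 0.12 for LBR, 0.88 ± 0.17 for HMGB3, 0.31 ± 0.11 for LMNA, -0.77 ± 0.10 for HMGA1 and -0.91 ± 0.09 for HMGA2. HMGB2 missed the threshold at 0.67 ± 0.28 (edgeR adjusted p = 0.0605) and was called by DESeq2 (0.67), with no filter on low counts (0.66), with the compared groups alone (0.67), under library size scaling (0.74), without ouabain replicate 1 of 16 h (0.89) and without ouabain replicate 3 of 36 h (0.75). LMNB2 was at 0.21 ± 0.15, and was called at 0.40 without the deviating libraries. The LMNA call was lost without senescent vehicle replicate 1 (0.26) or ouabain replicates 2 (0.28) or 3 (0.28) of 16 h, without senescent vehicle replicates 1 (0.29) or 3 (0.31) or ouabain replicate 1 (0.25) of 36 h, and with no filter on low counts (0.30). LMNB1, LBR and the HMGA genes thus moved in their 36 h direction late, HMGB3 and LMNB2 were already lower at 16 h, and HMGB2 and LMNA already higher. Both times of a drug use their own vehicle libraries, and digoxin and ouabain share them, so the likeness of their differences is no second line of evidence.

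Ouabain and digoxin are related glycosides that differ in their sugars and in the hydroxyl groups of the core. Their doses are not given in the labels, so compound and dose cannot be told apart. None of the 9 genes was called between the drugs at 16 h, 36 h or 36 h with the inhibitor, beside 4.94%, 5.36% and 1.45% of all genes. In edgeR 1 gene had an unadjusted p under 0.05 at 16 h, 2 had one at 36 h and 1 with the inhibitor, and DESeq2 called 0 of the 9 at each. All genes were not counted at that unadjusted cut-off, so nothing is read from the unadjusted counts. The largest differences were chosen after their values were seen. At 16 h LMNB1 differed by log2 -0.35 (ouabain minus digoxin, 95% interval -1.20 to 0.50) and LMNB2 by 0.27 (0.05 to 0.50, edgeR adjusted p = 0.162), which became 0.04 without the deviating libraries and was called at 0.43 without ouabain replicate 3. At 36 h HMGB2 differed by -0.23 (-0.56 to 0.09) and LMNA by 0.17 (0.01 to 0.33, adjusted p = 0.221), and LMNA was called at 0.26 under library size scaling. With the inhibitor LMNB1 differed by -0.24 (-0.62 to 0.14) and HMGA1 by 0.22 (0.07 to 0.37, adjusted p = 0.143), called at 0.22 with the compared groups alone and 0.23 without the deviating libraries. The intervals leave room for differences of the size shown, so the drugs are not shown to act alike.

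The caspase inhibitor, which blocks the proteases that carry out apoptosis, changed no drug effect past the threshold. The difference of the drug effect with and without it was called for 0 of the 9 genes in edgeR, beside 0.246% of all genes for digoxin and 0.150% for ouabain. At an unadjusted p under 0.05 there was 1 gene for digoxin and there were 2 for ouabain, and DESeq2 called 0 and 0. The share of all genes under that unadjusted cut-off was not counted, so nothing is read from the unadjusted counts. For digoxin the difference was 0.27 ± 0.28 for HMGB2 and -0.24 ± 0.11 for LBR. For ouabain it was 0.44 ± 0.28 for HMGB2 and -0.36 ± 0.11 for LBR (95% interval -0.59 to -0.13). With the compared groups fitted alone, LBR was called at -0.35 and 1 other of the 9 genes was called higher.

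How far the treated cells lay from proliferating cells was read in the same model. For digoxin 2 of the 9 genes were higher and 7 lower at 16 h, beside 35.1% and 38.0% of all genes. For that drug 3 were higher and 5 lower at 36 h, beside 35.5% and 36.8%, and 2 were higher and 4 lower with the inhibitor, beside 35.5% and 36.8%. For ouabain 2 were higher and 7 lower at 16 h, beside 34.3% and 36.1% of all genes. There 2 were higher and 4 lower at 36 h, beside 35.0% and 35.6%, and 2 were higher and 4 lower with the inhibitor, beside 34.9% and 35.5%. In these comparisons library size scaling moved the median of all genes by between -0.37 and -0.46. It left 0 of the 9 genes higher at 16 h and 1 at 36 h with either drug. Of 18696 genes it called 4163 higher with digoxin and 4002 with ouabain at 16 h, and 4562 and 4668 at 36 h.

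The gene farthest under proliferating cells was LMNB1 at 16 h, 30.2-fold lower with digoxin (log2 -4.92 ± 0.24) and 38.5-fold lower with ouabain (-5.27 ± 0.25; -6.04 without the deviating libraries). HMGB3 was lower at log2 -1.95 with digoxin and -1.76 with ouabain at 16 h and at -0.81 and -0.80 at 36 h. HMGB1 was lower at log2 -0.65 with digoxin and -0.77 with ouabain at 36 h, and LMNB2 at -0.43 and -0.47. HMGB2 was lower at 16 h, at -0.57 with digoxin (-0.81 without the deviating libraries) and -0.77 with ouabain, and neither was called with the groups fitted alone. At 36 h HMGB2 was higher by 0.36 ± 0.16 with digoxin (edgeR adjusted p = 0.045) and by 0.12 with ouabain, not called, while library size scaling gave -0.11 and -0.25. The digoxin call was lost without digoxin replicate 1 (0.26) or proliferating replicates 1 (0.38) or 2 (0.26). With the inhibitor HMGB2 was higher by 0.39 with digoxin (adjusted p = 0.03), and library size scaling gave -0.01; leaving out digoxin replicates 1 (0.32) or 3 (0.39) or proliferating replicates 1 (0.36) or 3 (0.34) ended that call.

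**Figure D3:**
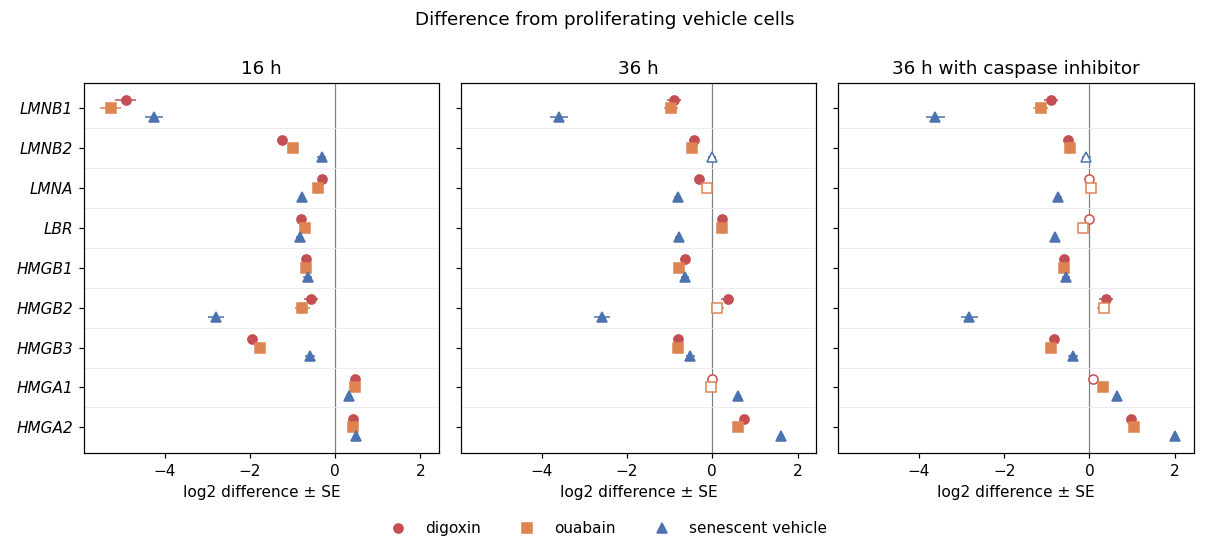
Log2 difference from proliferating vehicle cells, with SE, of digoxin, ouabain and senescent vehicle cells for each gene; filled symbols are called by edgeR and open symbols are not. At 36 h, under TMM scaling, LMNA, LBR, HMGB2 and HMGA1 lie within 0.36 of 0 with both drugs. Library size scaling moved the median of all genes there by -0.46 with digoxin and -0.37 with ouabain. LMNB1 lies at -0.90 with digoxin and -0.98 with ouabain, against -3.59 in senescent vehicle cells.

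Other lamina and nuclear envelope genes were mixed. Of 21 tested, 9 rose and 7 fell with digoxin at 36 h, beside 31.6% of all genes higher and 32.4% lower. Ouabain raised 10 and lowered 5, beside 30.2% and 30.8%, and senescence raised 8 and lowered 6, beside 26.7% and 25.8%. The medians were 0.11, 0.06 and 0.14, beside -0.02, 0.00 and -0.01 over all genes. Scaling by library size alone gave 5 higher and 10 lower with digoxin, 4 and 9 with ouabain and 6 and 6 in senescence. It turned the medians negative, at -0.20, -0.17 and -0.01. Of 18696 genes that scaling called 4278 higher and 8406 lower with digoxin, 4348 and 7575 with ouabain and 3780 and 6107 in senescence. TMPO, which encodes the lamina-associated LAP2 proteins, had 8.78 ± 0.85 CPM with digoxin at 16 h against 22.8 ± 0.71 CPM with senescent vehicle (log2 -1.38 ± 0.15), and 42.6 ± 1.4 against 23.2 ± 1.9 CPM at 36 h (0.88 ± 0.13). TOR1AIP1, the lamina protein LAP1, rose by 0.86 ± 0.07 with digoxin and 0.64 ± 0.07 with ouabain at 36 h, and TMEM43, an inner membrane protein, fell, with log2 changes of -0.81 ± 0.08 and -0.76 ± 0.08. The nesprin gene SYNE3 (-2.01 ± 0.22) and the nurim gene NRM (-1.43 ± 0.16) were lower in senescent than in proliferating cells at 36 h.

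Of 12 other HMG-box and HMGN genes tested, 3 rose and 8 fell with digoxin at 36 h, beside 31.6% of all genes higher and 32.4% lower. With ouabain 3 rose and 7 fell, beside 30.2% and 30.8%, and in senescence 3 rose and 5 fell, beside 26.7% and 25.8%. The medians were -0.41, -0.37 and -0.21, beside -0.02, 0.00 and -0.01 over all genes. In senescence 1 rose and 8 fell when scaled by library size alone, and 3 rose and 9 fell without the deviating libraries. Over all genes these settings called 3780 higher and 6107 lower, and 5524 higher and 5510 lower. TFAM, which packs mitochondrial DNA, had 85.0 ± 6.1 CPM with digoxin, 67.1 ± 1.1 CPM with ouabain and 25.7 ± 1.4 CPM in senescent vehicle cells (log2 1.72 ± 0.09 and 1.38 ± 0.09). HMGN4, a nucleosome-binding protein, rose by 1.14 ± 0.10 with digoxin and 1.08 ± 0.10 with ouabain. TFAM and HMGN4 are among the 3 that rose with each drug, and drug changes of those that fell are not given here. HMGN2, another nucleosome binder, was lower in senescent than in proliferating cells, at log2 -1.14 ± 0.09.

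Of 21 heterochromatin genes tested, 0 rose and 15 fell at 16 h with digoxin, beside 28.3% of all genes higher and 31.3% lower, and 0 rose and 15 fell with ouabain, beside 25.1% and 28.4%. At 36 h 3 rose and 7 fell with digoxin, beside 31.6% and 32.4% of all genes, and 3 rose and 9 fell with ouabain, beside 30.2% and 30.8%. The medians were -0.78 and -0.43 at 16 h, beside 0.02 for each drug over all genes, and -0.12 and -0.14 at 36 h, beside -0.02 and 0.00. Scaling by library size alone gave 2 higher and 17 lower with digoxin at 36 h and 2 and 15 with ouabain. Of 18696 genes that scaling called 4278 higher and 8406 lower with digoxin, and 4348 higher and 7575 lower with ouabain. SUV39H1, a histone H3 lysine 9 methyltransferase, fell, with log2 changes of -2.42 ± 0.30 with digoxin and -1.93 ± 0.28 with ouabain at 16 h and of -1.98 ± 0.29 and -1.08 ± 0.26 at 36 h. EZH2, the Polycomb methyltransferase, rose by 0.81 ± 0.18 with digoxin and 0.96 ± 0.17 with ouabain at 36 h. Of 7 genes tested among HMGB1 receptors and partners, 3 rose and 1 fell with each drug at 36 h, where 31.6% of all genes rose and 32.4% fell with digoxin and 30.2% rose and 30.8% fell with ouabain. The chemokine receptor CXCR4 had 12.2 ± 1.7 CPM with digoxin, 9.47 ± 0.57 CPM with ouabain and 0.986 ± 0.099 CPM in senescent vehicle cells, TLR2 rose by 2.67 ± 0.38 and 1.98 ± 0.40, and TLR4 fell, with log2 changes of -2.40 ± 0.41 and -2.32 ± 0.40.

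Cell division and replication genes were tested because LMNB1, LBR and HMGB2 are high in dividing cells. Of 36, 1 rose and 35 fell in senescence at 36 h (median log2 -2.47), beside 26.7% of all genes higher and 25.8% lower. Of the same 36, 10 rose and 15 fell with digoxin at 36 h (median -0.32), beside 31.6% and 32.4%. With ouabain 10 rose and 12 fell (median -0.24), beside 30.2% and 30.8%. When scaled by library size alone 18 fell with each drug, beside 8406 of 18696 genes with digoxin and 7575 with ouabain. CENPF, a kinetochore and nuclear matrix protein, had 41.1 ± 2.0 CPM with digoxin, 32.8 ± 2.8 CPM with ouabain and 9.39 ± 0.56 CPM in senescent vehicle cells. The centromere histone CENPA rose by 2.51 ± 0.35 with digoxin and 2.77 ± 0.33 with ouabain. MKI67, the proliferation marker, had 0.832 ± 0.091 CPM with digoxin, 0.812 ± 0.12 CPM with ouabain, 2.44 ± 0.46 CPM in senescent vehicle cells and 54.1 ± 10.7 CPM in proliferating cells, and it fell with both drugs (-1.56, edgeR adjusted p = 0.00181, and -1.60, adjusted p = 0.00114). Against proliferating cells 31 of the 36 were lower with digoxin at 36 h, beside 36.8% of all genes, and 31 with ouabain, beside 35.6%. Members of the list thus moved in both directions, with CENPF and CENPA higher and MKI67 lower. HRAS had 4662 ± 280 CPM with digoxin, 5073 ± 116 CPM with ouabain, 1235 ± 7.39 CPM in senescent vehicle cells and 553 ± 39.5 CPM in proliferating cells at 36 h. HRAS counts were higher with the drugs (log2 1.92 with digoxin and 2.04 with ouabain, both called).

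Likeness was described by the Pearson correlation of log2 CPM over the 12 group means, with no test, since the groups share treatment and depth. Among 12185 other genes, those closest to LMNB1 were VSIG10 (0.99), CDC42EP4 (0.99) and IGF1R (0.98), to LBR GCNT4 (0.98), to LMNA HYI (0.96) and to LMNB2 PCNX3 (0.98). The closest to HMGB2 was HSPA2 (0.99), to HMGB3 SOCS6 (0.99), to HMGA1 SRM (0.99), to HMGA2 the pseudogene HSPA8P1 (0.97) and to HMGB1 its own pseudogene HMGB1P5 (0.99). HMGA1P1 was also among the 3 closest to HMGA1 (0.98). Within the 9 genes LMNB1 was most like LBR (0.89), HMGA1 like HMGA2 (0.87), LMNB2 like HMGB3 (0.86) and LMNA like HMGB2 (0.85), and LBR ran most against HMGA1 (-0.92). The 9 genes thus fell into those that rose at 36 h (LMNB1, LBR), those raised at both times (LMNA, HMGB2), those that fell at both times (LMNB2, HMGB3), those that fell at 36 h (HMGA1, HMGA2) and HMGB1, which was not called.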

How the data were processed

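The authors deposited whole-number counts per Ensembl gene for 36 RNA-seq libraries prepared as stranded mRNA, per the labels. The submitters' processing notes name TopHat2 2.0.11, featureCounts and the build hg19; the featureCounts version, its strand setting and the annotation are not given in these sources. Names came from a table of gene names (51058 of 57232 genes) and GENCODE (309), leaving 5865 unnamed; 3 listed genes had no match (UHRF1, CD24, PECAM1).

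From these counts, genes were filtered with filterByExpr by group (18696 kept), scaled by TMM and fitted in R 4.3.3 with edgeR 4.0.16 (quasi-likelihood, 12 group means over 36 libraries, two-sided, Benjamini-Hochberg adjustment over all tested genes, threshold 0.05). SE is the log2 fold change over the square root of F, and intervals are 95%. The spread is thus shared by all groups. There were 18 planned comparisons, 4 planned differences of effects and 2 contrasts added after the data were seen. Lengths are GENCODE exon lengths on GRCh38.

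The 9 genes were all described; likeness used a prior count of 2 and genes of at least 5 CPM in a group, giving the 3 closest; from each list up to 4 called genes with the largest change and at least 1 CPM in a group could be named, and MKI67, HRAS and KDR were chosen after their values were seen. The genes and lists were chosen with earlier results of these data known. Alternatives were DESeq2 1.42.0, its size factors, library size scaling, no filter, the compared groups alone, a replicate block, each library left out and both deviating libraries left out. No library repeated another, and scripts were tested on simulated data. Depth per library is given as total counts, and low levels are limited by counting error.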

Additional observations from a re-analysis of the deposited data

Results flagged for a closer look

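Drug effects that differed between the times were singled out by the test of the difference in edgeR, with each difference given as the effect at 36 h minus that at 16 h on the log2 scale with its SE. For digoxin it was 3.35 ± 0.42 for LMNB1 (adjusted p = 3.8e-08), 1.00 ± 0.12 for LBR (1.15e-08) and 0.52 ± 0.15 for LMNB2 (0.00594) among the lamina genes. Among the HMG genes it was 0.71 ± 0.28 for HMGB2 (adjusted p = 0.0393), 1.06 ± 0.17 for HMGB3 (4.02e-06), -0.75 ± 0.10 for HMGA1 (3.44e-07) and -0.77 ± 0.09 for HMGA2 (8.36e-09).

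For ouabain the difference was 3.63 ± 0.43 for LMNB1 (edgeR adjusted p = 2.35e-08), 0.31 ± 0.11 for LMNA (0.0298) and 0.89 ± 0.12 for LBR (1.78e-07). It was 0.88 ± 0.17 for HMGB3 (adjusted p = 7.33e-05), -0.77 ± 0.10 for HMGA1 (3.4e-07) and -0.91 ± 0.09 for HMGA2 (5.73e-10). Both drugs were set against the same vehicle libraries. The senescence effect on HMGA2 was larger at 36 h by 1.10 ± 0.09 (adjusted p = 5.56e-10), a contrast added after the data were seen that uses the same senescent vehicle libraries.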

How the results depend on the processing

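The shares here are of results for single genes that kept their direction and their side of the threshold. They were 160 of 168 with DESeq2, 160 of 168 with its size factors in edgeR and 132 of 168 with library size scaling. They were 161 of 168 with no filter on low counts, 151 of 167 with the compared groups alone and 160 of 168 without the deviating libraries. When single libraries were left out the share was 1078 of 1146. Counts of the 9 genes are not part of these shares. The cause of the changes below was not tested, except that fewer libraries or fewer genes enter some fits by construction. Depth limits LMNB1 most, at 5 to 29 counts in senescent cells at 16 h.

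Library size scaling gave 3780 higher and 6107 lower genes in senescence at 36 h, against 5001 and 4822 with TMM. For digoxin it gave 4278 higher and 8406 lower at 36 h, against 5909 and 6054, and 2937 higher and 8199 lower at 16 h, against 5285 and 5859. Between ouabain and digoxin at 36 h it gave 704 higher and 294 lower, against 284 and 719. Against senescent vehicle at 16 h it left 1 of the 9 genes higher and 7 lower with digoxin (LBR -0.29, HMGA1 -0.18), against 2 and 2 with TMM. It left 1 higher and 5 lower with ouabain (LBR -0.15, HMGA1 -0.15), against 2 and 3, beside 2784 higher and 7769 lower of all genes. Against proliferating cells it left 0 higher at 16 h with either drug (2 each with TMM, and HMGA2 -0.016 with digoxin). Of all genes it called 4163 higher with digoxin and 4002 with ouabain at 16 h, and 4562 and 4668 at 36 h. At 36 h it left 1 higher with digoxin (LBR -0.23, HMGB2 -0.11; 3 with TMM) and 1 with ouabain (LBR -0.14, HMGB2 -0.25; 2 with TMM). With the inhibitor it left 1 higher and 7 lower with digoxin (HMGB2 -0.0092, HMGA1 -0.31, against 2 and 4 with TMM). It left 1 higher with ouabain (LMNA -0.33, HMGB2 -0.037, HMGA1 -0.055, against 2 with TMM). Of all genes it called 4742 higher and 9180 lower there with digoxin, and 4658 higher with ouabain. It also called 1 gene higher between the drugs at 36 h, against 0, and 12 genes for the digoxin difference with the inhibitor, against 46.

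DESeq2 turned HMGB1 with digoxin against senescent vehicle to 0.034 at 36 h and 0.000142 with the inhibitor, HMGA1 at 36 h against proliferating cells to 0.037 with digoxin and 0.000975 with ouabain, and LMNA and LBR with digoxin and the inhibitor to 0.036 and 0.027. Its size factors in edgeR gave 0.034, 0.000154, 0.037, 0.00128, 0.036 and 0.022 for the same 6 values, and the compared groups alone gave HMGB1 0.023 and 0.0037, HMGA1 with digoxin 0.0048, LMNA 0.040 and LBR 0.031, all near 0 and uncalled. With no filter, LMNB2 in senescence at 36 h was 0.0086, LBR with digoxin at 16 h was -0.059, and 1 of the 9 genes, not 2, was higher with ouabain than in proliferating cells at 36 h.

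Counts of called genes between ouabain and digoxin were 923 at 16 h, 1003 at 36 h and 271 with the inhibitor. They became 281, 2721 and 1132 without the deviating libraries (1 of the 9 genes higher with the inhibitor), 0, 2150 and 933 with the compared groups alone (again 1 higher with the inhibitor), and DESeq2 gave 495 with the inhibitor. The differences of drug effects with the inhibitor counted 46 genes for digoxin and 28 for ouabain, against 129 and 63 with DESeq2, 22 and 86 with no filter, 646 and 644 with the compared groups alone (1 of the 9 genes higher and 1 lower for ouabain) and 388 and 203 without the deviating libraries, and 11 for digoxin with DESeq2 size factors. The senescence effect at 36 h against 16 h counted 399 genes, against 186 with the compared groups alone and 771 without the deviating libraries. Proliferating cells at 36 h against 16 h counted 1522 genes and 3 of the 9 lower, against 84 and 1 with the compared groups alone and 2758 and 5 without the deviating libraries. Without the deviating libraries the digoxin difference between times was -0.0061 for LMNA and -0.023 for HMGB1. LMNB1 between the drugs at 16 h had no value with the compared groups alone, as it fell below the filter.

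Leaving out single libraries gave ranges of -0.066 to 0.021 for HMGB1 and digoxin at 36 h, -0.044 to 0.082 for LBR and digoxin at 16 h, and -0.036 to 0.025 for LMNB2 in senescence at 36 h. Against proliferating cells the ranges were -0.069 to 0.033 for HMGA1 with digoxin and -0.091 to 0.051 with ouabain at 36 h, and with the inhibitor -0.094 to 0.031 for LBR and -0.061 to 0.070 for LMNA with digoxin and -0.018 to 0.071 for LMNA with ouabain. The digoxin difference between times ranged from -0.032 to 0.056 for HMGB1 and -0.028 to 0.081 for LMNA, and LMNB1 between the drugs at 16 h from -1.10 to 0.19. Called genes ranged from 127 to 1693, 374 to 655 and 92 to 305 between the drugs at 16 h, 36 h and with the inhibitor, from 2 to 27 and 8 to 20 for the inhibitor differences of digoxin and ouabain, from 264 to 1098 for the senescence effect by time and from 994 to 2612 for proliferating cells by time. Genes of the 9 called higher ranged from 1 to 2 for digoxin with the inhibitor against proliferating cells and 0 to 1 between the drugs at 16 h. LBR with ouabain and the inhibitor against proliferating cells was called without ouabain replicate 1 (-0.20), and LMNB2 in proliferating cells by time lost its call without replicate 3 of 36 h (-0.37).

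The replicate numbers share only a number: in 0 of 19 comparisons did all 3 same-numbered pairs correlate above 0.1 (range -0.207 to 0.260, with 29 of 57 pairs below 0). With the replicate block 166 of 168 results kept their call, HMGB2 with ouabain became called between the times (0.69) and against proliferating cells with the inhibitor (0.33), and the ouabain inhibitor difference counted 17 genes, against 28.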
